A study of Mus musculus with 52 samples.

Results

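The loci described here are 5 imprinted regions of the mouse genome outside the H19-Igf2 and Snrpn clusters: Peg3-Usp29-Zim1, Grb10, Dlk1-Meg3, Igf2r-Airn and Kcnq1ot1-Cdkn1c. They were chosen by name, as 10 genes of the 55450 gene entries in GENCODE release M21 on build mm10, and the rule that selected them uses no peak. Each gene was extended by 50 kb on both sides, and stretches that overlapped within a locus were merged. The regions covered 1397 kb in all. The data were peaks of chromatin immunoprecipitation followed by sequencing (ChIP-seq) for SmcHD1, CTCF and the cohesin subunit Rad21 in clonal female mouse embryonic fibroblasts. The cells came from F2 embryos of a cross between FVB mice carrying the MommeD1 allele of SmcHD1 and castaneus mice.

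At an imprinted locus, the copy inherited from one parent is expressed and the other is silent, and a control region that carries DNA methylation on one parental copy sets this choice. The control regions of Peg3, Grb10, Igf2r-Airn and Kcnq1ot1 are CpG-rich promoters methylated on the maternal copy, and that of Dlk1-Meg3 lies between the genes and is methylated on the paternal copy. CTCF binds DNA through zinc fingers and can be hindered by methylation, and cohesin, of which Rad21 is a subunit, often accumulates where CTCF is bound. SmcHD1 is a chromosomal protein of the inactive X chromosome that also acts on some imprinted clusters.

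The lists came from 3 genotypes, and the authors pooled the replicates of a genotype into 1 list per antibody. Wild type (wt) was the clone Wt2A1. The germline mutant (mut) was the clone Mut5A6, which is null for SmcHD1 through MommeD1. The somatic knockout (somKO) joined the 2 clones A3-3 and D4, in which SmcHD1 had been disrupted with CRISPR in another wild-type clone than Wt2A1, so that clone and genotype cannot be told apart. Autosomes in each clone are a mosaic of FVB and castaneus stretches, and the lists do not separate the parental copies, so that a peak may stand on one copy or on both. SmcHD1 was profiled in wt and mut, with 3 libraries behind each list. The CTCF lists rest on 3, 3 and 4 libraries and the Rad21 lists on 2, 2 and 4 libraries for wt, mut and somKO. They held 6993 and 244 SmcHD1 peaks, between 57798 and 69736 CTCF peaks, and between 66031 and 89974 Rad21 peaks. The somKO list was the longest for both antibodies. According to the study's methods, cells for SmcHD1 and Rad21 were cross-linked with EGS and then formaldehyde, and those for CTCF with formaldehyde alone. Between CTCF and the other 2 proteins, antibody and cross-linking therefore cannot be told apart. The lists carry no read counts, so that depth is unknown, and a region without a peak was below the authors' threshold rather than shown to be unbound. With 1 pooled list per group there is no spread between replicates, so that no difference described here was tested. Intervals given with shares are 95% Wilson intervals and cover counting error only.

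Peak strength was read as a percentile, which is the percent of peaks of the same list that have a lower score, with a tied peak counted as 0.5. A percentile of 90 therefore marks a peak stronger than 90% of its own list. CTCF and Rad21 peaks that overlapped at a locus were merged to sites, of which there were 107 at the 5 loci.

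SmcHD1 peaks were found at 4 of the 5 loci in wt. There were 8 in all, which is 5.73 per Mb against 2.09 per Mb over the autosomes. With scores of at least 50 the count was 4. Peg3-Usp29-Zim1 had 3, Dlk1-Meg3 had 3, and Grb10 and Igf2r-Airn had 1 each. Kcnq1ot1-Cdkn1c had none. The mut list had 1 peak at the 5 loci, at Dlk1-Meg3. Within 50 kb of H19 and Igf2, and within 50 kb of Snrpn, Ndn and Magel2, there were 0 SmcHD1 peaks in both lists. The latter windows leave out peaks of the same cluster: the span from the first to the last of these 3 genes held 5 in wt, and 25 lay within 500 kb of that span, the closest 27.9 kb from a window. Around H19-Igf2, 1 lay within 500 kb.

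The strongest SmcHD1 peak at each of these 4 loci lay at or near a promoter or in the stretch between the genes. At Peg3, a zinc finger gene expressed from the paternal copy, a peak of 1065 bp lay inside the gene, at chr7:6728890-6729954. Its edge lay 465 bp from the closest annotated Peg3 transcript start. The peak stood at percentile 96.9, rank 214 of 6993, and lay within 1 kb of the starts of both Peg3 and Usp29, its divergent neighbour. At Grb10, which encodes an adaptor protein that restrains growth factor signalling, the peak at chr11:12025886-12026362 stood at percentile 91.0. It lay 12.6 kb inside the gene and overlapped the start of a shorter annotated Grb10 transcript. At Airn, the paternally expressed antisense RNA that silences Igf2r, the peak at chr17:12741977-12742650 stood at percentile 73.0 and its midpoint lay 1.00 kb past the Airn start. Igf2r overlaps it on the other strand. Upstream of Meg3, a maternally expressed long noncoding RNA, the peak at chr12:109528170-109528628 stood at percentile 99.7, rank 20 of 6993. It lay 12.6 kb before the Meg3 start.

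The peak upstream of Meg3 was the only one of the 8 that met a peak of the mut list. That mut peak, at chr12:109528256-109528588, stood at rank 26 of 244. Over the whole wt list, 2.33% of SmcHD1 peaks met a mut peak. Mut cells are null for SmcHD1, so that this position was called both with and without the protein. Without that peak the count at the 5 loci was 7. The other 4 peaks of the 8 were weaker. One in the Peg3 body stood at percentile 51.1, one in the Usp29 body at 15.9, and those in the Dlk1 and Meg3 flanks at 12.3 and 10.4.

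The sequences under the middle of the strongest peaks and of the second Peg3 peak are shown because they differ in CpG content. They are read on the plus strand of mm10, 200 bases each, with every CpG in capitals. The Grb10 peak lies over untranslated exon sequence and is not printed.
Peg3 body, chr7:6727466-6727665: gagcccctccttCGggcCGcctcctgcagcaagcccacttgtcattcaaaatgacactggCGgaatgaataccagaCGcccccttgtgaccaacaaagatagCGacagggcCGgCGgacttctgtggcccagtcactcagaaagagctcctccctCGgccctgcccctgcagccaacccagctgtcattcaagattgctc
Peg3-Usp29 promoter, chr7:6729323-6729522: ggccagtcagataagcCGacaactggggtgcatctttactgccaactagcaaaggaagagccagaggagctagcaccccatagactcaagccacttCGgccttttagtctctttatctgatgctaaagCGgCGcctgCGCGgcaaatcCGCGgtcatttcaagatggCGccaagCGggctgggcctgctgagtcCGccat
upstream of Meg3, chr12:109528300-109528499: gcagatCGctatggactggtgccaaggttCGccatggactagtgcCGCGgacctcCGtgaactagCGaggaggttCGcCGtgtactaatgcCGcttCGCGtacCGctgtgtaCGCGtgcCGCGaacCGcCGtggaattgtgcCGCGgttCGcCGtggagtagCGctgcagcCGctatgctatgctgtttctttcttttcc
Airn promoter, chr17:12742214-12742413: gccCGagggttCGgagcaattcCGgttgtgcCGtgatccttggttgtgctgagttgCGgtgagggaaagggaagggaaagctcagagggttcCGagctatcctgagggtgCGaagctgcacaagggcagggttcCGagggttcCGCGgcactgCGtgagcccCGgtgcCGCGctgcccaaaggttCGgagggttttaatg
The window upstream of Meg3 held 24 CpG, that at Airn 15, and those at Peg3 11 and 8. Over the whole peak, the observed to expected CpG ratio was 1.05 at Grb10, 0.968 upstream of Meg3, 0.810 at Airn and 0.551 at the Peg3-Usp29 promoter. The median of the 5154 autosomal SmcHD1 peaks of wt was 0.276, with an interquartile range from 0.129 to 0.626. Grb10, the stretch upstream of Meg3 and Airn thus lay above the upper quartile, and the Peg3-Usp29 promoter lay inside the range.

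Among the member genes, 3 of 10 had a wt SmcHD1 peak within 1 kb of the annotated start: Peg3, Usp29 and Airn. Peg3 and Usp29 share their peak, so that these are 2 separate promoters. Over all annotated genes the share was 3.01%, and over protein-coding genes it was 4.86%. None of 23 other genes of the same clusters had one. The SmcHD1 peaks were often beside CTCF or Rad21: 3 of the 8 met a wt CTCF peak, against 20.4% over the list, and 5 of the 8 met a wt Rad21 peak, against 25.9%. The 2 peaks in the stretch before Meg3 met no CTCF or Rad21 peak in any of the 6 lists.

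**Figure D1:**
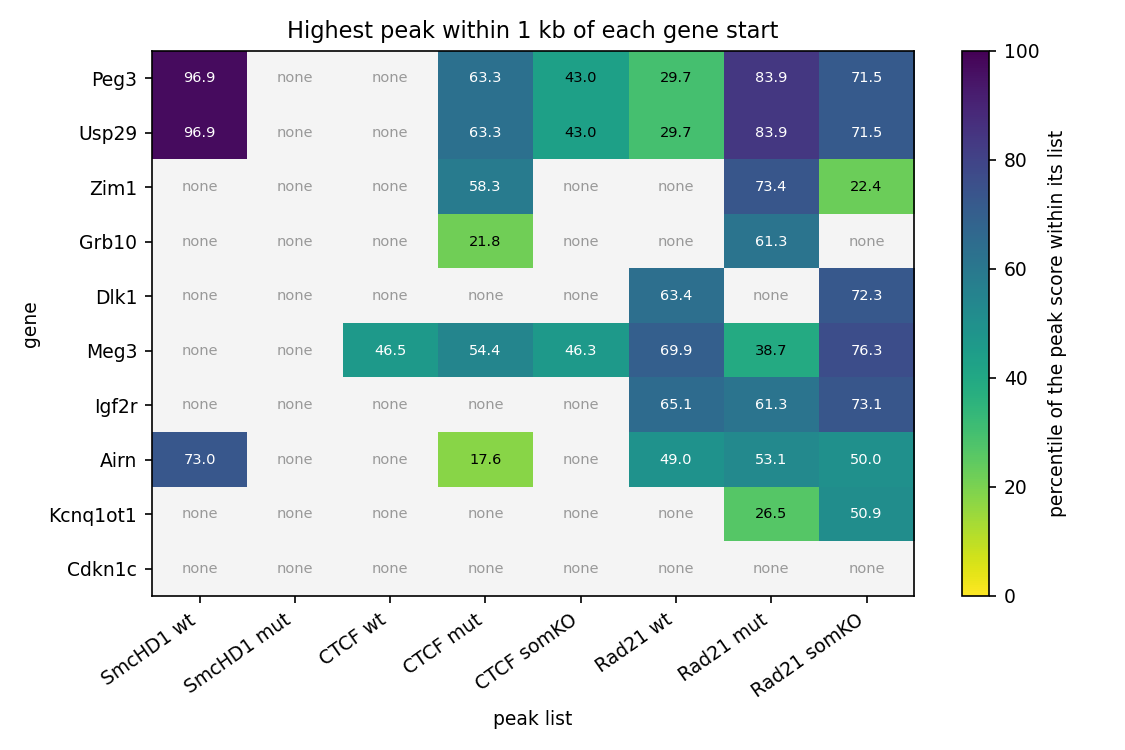
Percentile of the highest peak within 1 kb of the annotated start of each member gene (rows) in each of the 8 lists (columns), with darker colours for higher percentiles and "none" where the list has no peak there. Meg3 is filled in all CTCF and Rad21 columns, Cdkn1c is empty throughout, and the CTCF mut column has 6 filled cells where the CTCF wt column has 1.

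In the order wt, mut and somKO, CTCF had 39, 47 and 44 peaks at the 5 loci, and Rad21 had 63, 73 and 75. In wt this is 27.9 CTCF peaks per Mb against 23.6 over the autosomes, and 45.1 Rad21 peaks per Mb against 26.7. The H19-Igf2 locus was denser in wt, with 83.6 CTCF and 62.7 Rad21 peaks per Mb, and the Snrpn-Ndn-Magel2 cluster was sparser, with 15.3 and 10.2 per Mb. Among the 5 loci, the CTCF counts in wt were alike, from 5 at Grb10 to 10 at Kcnq1ot1-Cdkn1c. The Rad21 counts in wt differed more, from 7 at Peg3-Usp29-Zim1 and at Kcnq1ot1-Cdkn1c to 19 at Dlk1-Meg3 and 20 at Igf2r-Airn.

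**Figure D2:**
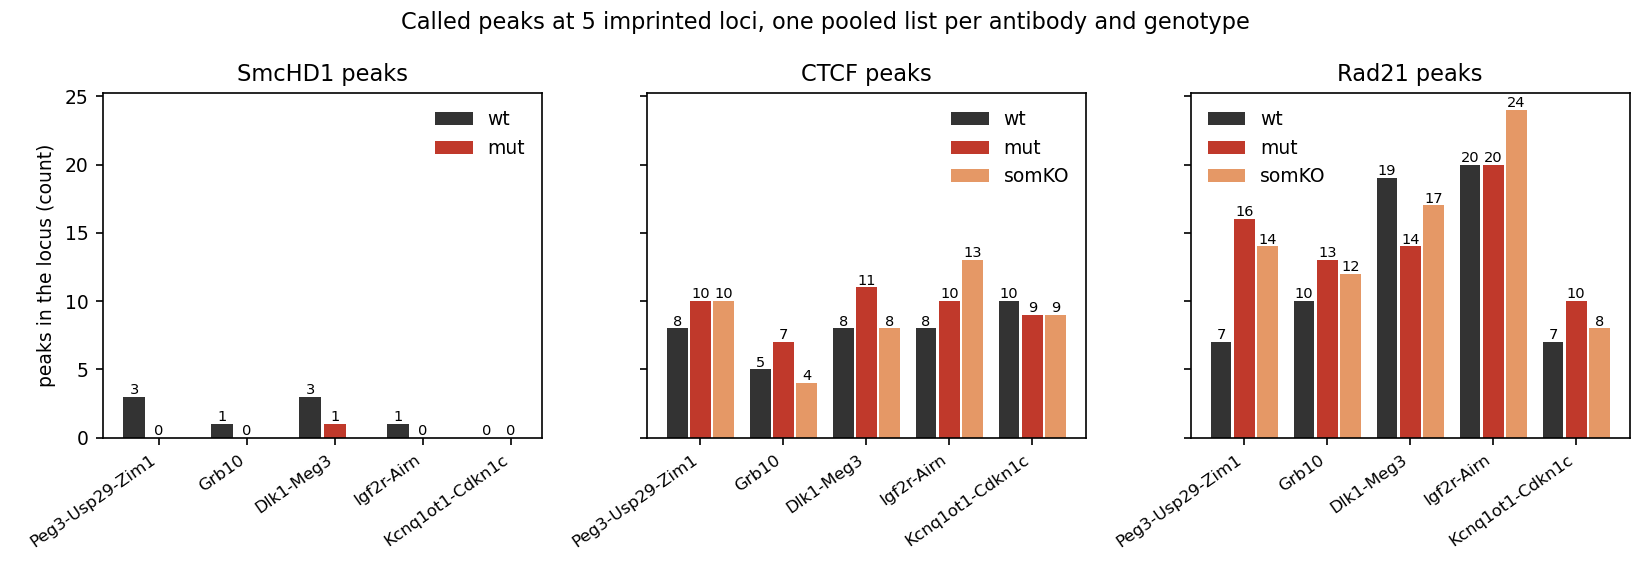
Number of peaks at each locus (bars) for SmcHD1, CTCF and Rad21, with 1 bar per genotype and the count above it. A site can hold more than 1 peak of a list. Rad21 at Peg3-Usp29-Zim1 went from 7 peaks in wt to 16 in mut and 14 in somKO; Dlk1-Meg3 had fewer Rad21 peaks in mut (14) than in wt (19).

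Of the 107 sites, 21 were present in all 6 CTCF and Rad21 lists and 34 in a single list. The shared sites were strong, with median percentiles between 72.4 and 82.9 in the 6 lists, and the sites of a single list were weak, with medians between 3.70 and 26.5. CTCF was called at 54 sites, 28 of them in all 3 genotypes, and Rad21 at 92 sites, 38 of them in all 3 genotypes. Rad21 stood alone at 53 sites and CTCF alone at 15.

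Rad21 peaks at these loci met CTCF less often than Rad21 peaks in general. In wt, 23 of 63 did (36.5%, interval 25.7 to 48.9), against 58.9% of all Rad21 peaks. The shares were 34 of 73 in mut (46.6%, 35.6 to 57.9) against 58.4%, and 34 of 75 in somKO (45.3%, 34.6 to 56.6) against 54.9%. The interval of somKO contains the value over the whole list, and that of mut ends just below it. The loci were unlike each other. At Igf2r-Airn 3 of 20 wt Rad21 peaks met CTCF, at Grb10 3 of 10 and at Dlk1-Meg3 6 of 19. At Peg3-Usp29-Zim1 the count was 5 of 7 and at Kcnq1ot1-Cdkn1c 6 of 7. Within 5 Mb of each of the 5 loci the share was between 53.6% and 65.8%. Read from the side of CTCF, 64.1% of wt peaks at the loci met Rad21, against 67.6% over the list. The values were 74.5% against 68.6% in mut and 81.8% against 74.4% in somKO.

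The share of peaks that differed between genotypes was set beside that of the whole lists. Of 39 CTCF peaks in wt, 7 met no mut peak (17.9%, interval 8.98 to 32.7) against 19.7% over the list, and 5 met no somKO peak (12.8%, 5.60 to 26.7) against 7.63%. Of 63 Rad21 peaks in wt, 17 met no mut peak (27%, 17.6 to 39.0) against 28.5%, and 6 met no somKO peak (9.52%, 4.44 to 19.3) against 7.22%. In the other direction, 13 of 47 CTCF peaks of mut met no wt peak (27.7%, 16.9 to 41.8) against 16.8%, and 13 of 44 of somKO (29.5%, 18.2 to 44.2) against 22.6%. For Rad21 the counts were 24 of 73 in mut (32.9%, 23.2 to 44.3) against 27.2%, and 24 of 75 in somKO (32.0%, 22.5 to 43.2) against 37.8%. For 7 of these 8 shares the interval contained the value over the whole list, and for CTCF peaks of mut without a wt peak it began just above it. Other settings changed this for some peaks gained over wt. For Rad21 in mut the share was 36.5% (24.8 to 50.1) against 20.9% with scores of at least 50, and 63.0% (51.5 to 73.2) against 46.9% when overlap had to cover 50% of both peaks. For CTCF in somKO it was 28.2% (16.5 to 43.8) against 13.2% with lists of equal length.

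**Figure D3:**
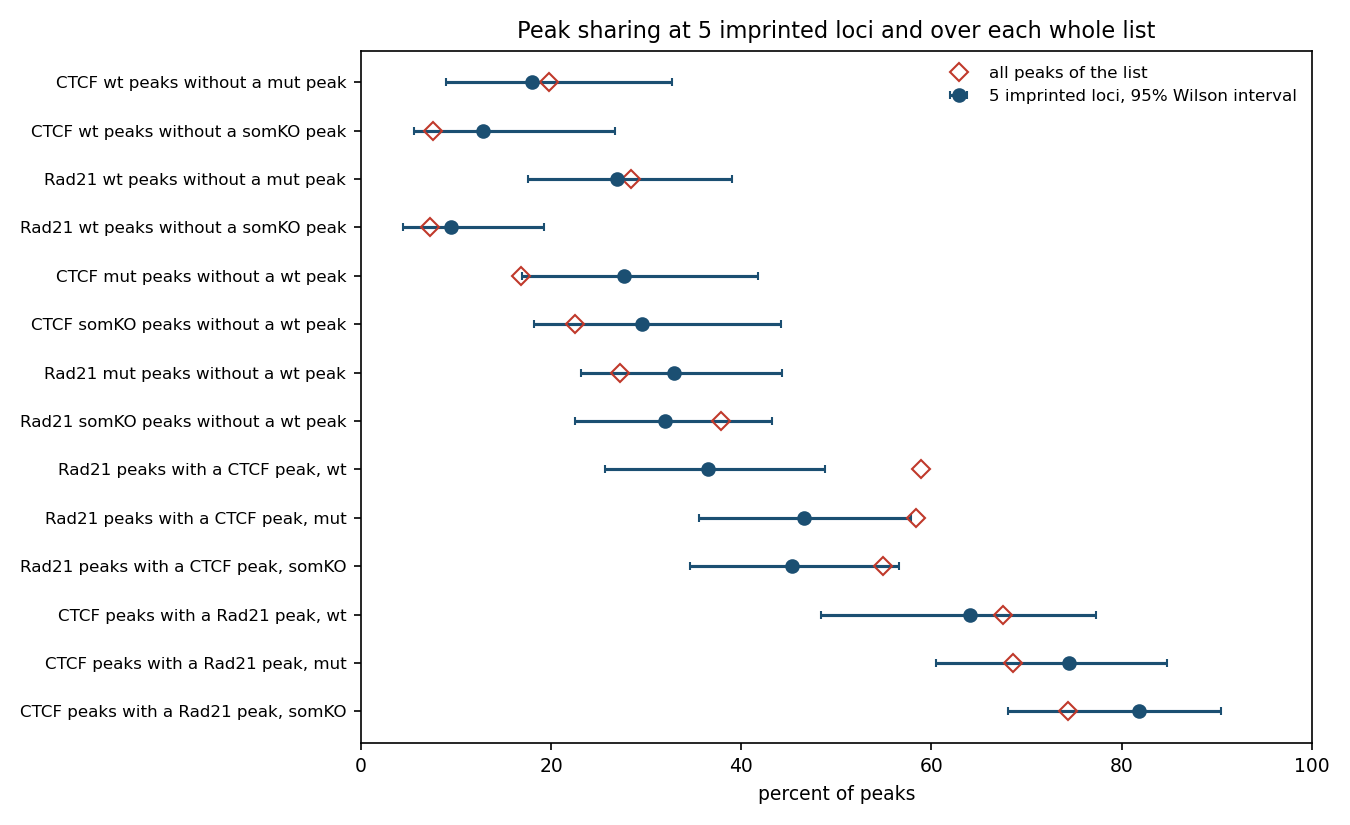
Percent of peaks (horizontal axis) that lack a counterpart in another genotype or meet a peak of the other antibody, at the 5 loci together (filled circles with 95% Wilson intervals) and over the whole list (open diamonds). The largest gap between circle and diamond is that of wt Rad21 peaks with a CTCF peak, 36.5% against 58.9%.

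At the member promoters, CTCF was called at 1 of 10 in wt, at 6 in mut and at 3 in somKO, where the shares of all annotated genes were 16.5%, 19.3% and 19.2%. Rad21 was called at 6, 8 and 8, where the shares of all genes were 26.9%, 29.1% and 31.2%. Most members are protein-coding. Over protein-coding genes the shares were higher, at 26.9%, 32.7% and 31.2% for CTCF and 47.8%, 52.5% and 53.6% for Rad21. Peg3 and Usp29 share their highest promoter peak in each of these lists where they have one, and each is counted. Of the 23 other genes of the clusters, CTCF was called at 3, 4 and 4, and Rad21 at 4, 6 and 5. Cd81 and Nap1l4 carried both in every genotype. The CTCF counts depended on how a promoter was drawn. With any annotated transcript start they were 3, 6 and 5, and within 2 kb of the start the wt count was 4.

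Peg3-Usp29-Zim1 was the locus where both lists without SmcHD1 differed from wt in the same direction at every shared peak. All 7 CTCF peaks of wt that met a mut peak stood at a higher percentile in mut, with a median difference of 20.0 points. Over the whole list 46.4% of such peaks did so, with a median of -0.70, and within 5 Mb of the locus 79 of 124 did, with a median of 2.67. In somKO it was again 7 of 7, with a median of 16.2 points, but there 75.7% of all such peaks were higher, with a median of 4.28. For Rad21 the counts were 7 of 7 in mut and 7 of 7 in somKO, with medians of 11.3 and 11.2 points, against 54.1% and 86.1% over the lists, with medians of 0.90 and 8.68. Where a wt peak met more than 1 peak of the other list, the highest percentile was taken. The wt Rad21 peaks at percentiles 26.5 and 29.7, both at the shared Peg3 and Usp29 start, met the same peak in mut. In somKO they also met a single peak, so that the 7 are not all separate. A percentile is a rank within a list, and it moves with the length of the list as well as with the peak.

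The largest differences at this locus stood around the shared Peg3 and Usp29 start. The site over both starts had CTCF at percentile 19.8 in wt, 63.3 in mut and 43.0 in somKO. It had Rad21 at 29.7, 83.9 and 71.5. In wt its CTCF peak lay inside Peg3, beyond 1 kb from the start. In mut and somKO a second CTCF peak lay over the Peg3 start itself, and the values 63.3 and 43.0 belong to that peak. The CTCF peaks that met the wt peak stood at 55.1 in mut and 38.5 in somKO. A site 2.89 kb inside Peg3 had CTCF at 48.2, 87.3 and 71.7, and Rad21 at 83.2 in mut and 67.3 in somKO with none in wt. Both sites carried the SmcHD1 peaks of wt described above. At the start of Zim1, a zinc finger gene expressed from the maternal copy, CTCF was called only in mut, at percentile 58.3, and Rad21 in mut at 73.4 and in somKO at 22.4. A site 7.48 kb inside Zim1 had CTCF in all genotypes, at 51.0, 71.0 and 69.0, and Rad21 at 69.6 in mut and 61.1 in somKO with none in wt.

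The body of Usp29, which encodes a member of the ubiquitin-specific protease family, held the strongest sites of the locus. They lay far downstream of its start. One at 207 kb had CTCF at 81.0, 87.7 and 87.5 and Rad21 at 81.6, 91.5 and 86.6, and one at 187 kb had CTCF at 73.5, 90.6 and 82.5 and Rad21 at 79.8, 93.6 and 90.5. Between 4 and 150 kb past the start there were 6 Rad21 sites without CTCF, of which 5 were called in mut, 1 in somKO and 0 in wt. Each was called in 1 list only and was weak. They stood at percentiles 20.0, 24.6, 43.9, 15.8 and 26.5 in mut and at 27.1 in somKO. In all, 9 of 16 Rad21 peaks of mut and 8 of 14 of somKO at the locus met no wt peak. Within 5 Mb of the locus the counts were 53 of 144 and 50 of 155, and over the lists the shares were 27.2% and 37.8%.

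Grb10 held the strongest Rad21 site of the 5 loci in wt and somKO. In mut a site in Kcnq1 stood higher, at percentile 98.7. The Grb10 site lay 64.4 kb inside the gene, with CTCF at percentile 98.6 in wt, 88.4 in mut and 98.9 in somKO. It had Rad21 at 99.95, 97.5 and 99.96. The site at the internal transcript start, where the SmcHD1 peak lay, had CTCF at 69.0 in wt, 80.1 in mut and 32.4 in somKO. It had Rad21 at 84.4, 95.9 and 57.7. It was thus highest in mut and lowest in somKO for both antibodies. At the main start of Grb10, 4 sites within 4 kb carried Rad21 in mut and none did in wt or somKO. The site over the start had Rad21 at 61.3 and CTCF at 21.8. At the whole locus, 7 of 13 Rad21 peaks of mut met no wt peak, against 24 of 117 within 5 Mb. For somKO the count was 3 of 12, against 54 of 168 within 5 Mb. Over the lists of mut and somKO the shares were 27.2% and 37.8%. Deeper in the gene, between 60 and 100 kb from the start, Rad21 was called at 5 of 9 sites in wt, at 3 in mut and at 8 in somKO. In that stretch 3 Rad21 sites without CTCF were called in wt and somKO and not in mut. They stood at percentiles 44.5, 19.9 and 40.2 in wt and at 37.9, 9.27 and 51.8 in somKO. Of the wt Rad21 peaks at the locus, 4 of 10 met no mut peak (40%), near the 59 of 153 within 5 Mb (38.6%). Over the list the share was 28.5%. The site at the internal start, the strongest site and a site 99.1 kb inside the gene carried Rad21 in every genotype.

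At Dlk1-Meg3 the Rad21 sites over Dlk1 were called in wt and somKO but not in mut. Dlk1, a paternally expressed membrane protein related to Notch ligands, had 4 Rad21 sites over its promoter and body, of which 4 were called in wt, 3 in somKO and 0 in mut. The site over the start stood at percentile 63.4 in wt and 72.3 in somKO. None of the 4 carried CTCF. In the flank upstream of Dlk1, Rad21 was called at 11 of 14 sites in wt, 8 in mut and 11 in somKO. CTCF was called there at 4 sites in each genotype. In all, 8 of 19 Rad21 peaks of wt at the locus met no mut peak, against 87 of 379 within 5 Mb. For somKO the count was 3 of 19, against 26 of 379 within 5 Mb. Over the list, 28.5% of wt Rad21 peaks met no mut peak and 7.22% no somKO peak.

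Meg3 was the one member whose promoter carried CTCF and Rad21 in every list. CTCF had a pair of peaks past the Meg3 start. The stronger, at chr12:109542919-109543212 in wt, stood at 67.2, 85.0 and 71.7 in the 3 genotypes, and the weaker, within 1 kb of the start, at 46.5, 54.4 and 46.3. The highest Rad21 peak of the site stood at 69.9, 75.0 and 76.3. In mut that peak lay beyond 1 kb from the start, and the Rad21 peak within 1 kb stood at 38.7. In wt and somKO the same Rad21 peak reached over both places. The stretch between Dlk1 and Meg3, including the SmcHD1 peaks before Meg3, held no CTCF or Rad21 site. A site 16.3 kb before Dlk1 was the strongest Rad21 site in wt, at 72.1, 73.4 and 78.8, and carried CTCF at 63.7, 69.2 and 61.0.

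Igf2r-Airn had the most sites with Rad21 in every genotype and CTCF in none. Igf2r encodes a receptor that takes up IGF2 for degradation and is expressed from the maternal copy. Of its 31 sites 8 were of this kind, of 14 at the 5 loci. Counting sites with Rad21 in any genotype and no CTCF, it had 15, Dlk1-Meg3 also 15 and Grb10 14 of 20. The site over the Igf2r start was one of them, with Rad21 at percentile 65.1 in wt, 61.3 in mut and 73.1 in somKO. The Airn start had Rad21 at 49.0, 53.1 and 50.0, and CTCF only in mut, at 17.6. The SmcHD1 peak of wt lay in that site. The strongest site lay inside Airn, 40.8 kb from the Igf2r start on the far side from Igf2r, with CTCF at 90.3, 94.1 and 90.5 and Rad21 at 97.1, 96.4 and 97.4. These values differed little between genotypes. Of its CTCF peaks, 7 of 13 in somKO and 4 of 10 in mut met no wt peak, against 67 of 279 and 43 of 246 within 5 Mb. Of its Rad21 peaks, 8 of 24 in somKO and 3 of 20 in mut met none, which is 33.3% and 15.0%. Within 5 Mb the Rad21 shares were 33.6% and 24.9%. Over the lists of somKO and mut, the CTCF shares were 22.6% and 16.8% and the Rad21 shares 37.8% and 27.2%.

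Kcnq1ot1-Cdkn1c differed from the other loci in that nearly all of its sites lay outside the member genes. Kcnq1ot1 is a paternally expressed antisense RNA that starts inside Kcnq1, and Cdkn1c encodes an inhibitor of the cell cycle expressed from the maternal copy. The body of Kcnq1ot1 held no CTCF or Rad21 site, and its start had Rad21 in mut at percentile 26.5 and in somKO at 50.9, with none in wt and no CTCF in any list. The Cdkn1c start had no peak in any of the 8 lists. Upstream of Cdkn1c, 2 strong sites lay close by in every genotype. One 3.68 kb before its start had CTCF at 79.9, 79.8 and 84.3 and Rad21 at 91.8, 89.4 and 92.5, and one 9.26 kb before it had CTCF at 89.0, 91.8 and 94.4 and Rad21 at 83.4, 80.0 and 85.6. At the far end of the locus, in Kcnq1, a site had CTCF at 93.7, 91.2 and 91.2 and Rad21 at 99.2, 98.7 and 99.5. All 9 CTCF peaks of mut here met a wt peak, and 1 of 9 of somKO did not. Within 5 Mb, 28 of 283 CTCF peaks of mut and 66 of 337 of somKO met no wt peak. Over the lists the shares were 16.8% and 22.6%.

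The CTCF sequences at Meg3 and in Airn are shown because they carry a core of the known CTCF motif, AGGNGGC on either strand, in capitals. Both are read on the minus strand of mm10, 60 bases around the match, inside the strongest wt CTCF peak of each locus.
Meg3, chr12:109543013-109543072: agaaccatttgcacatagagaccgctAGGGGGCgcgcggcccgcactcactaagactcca
Airn, chr17:12810636-12810695: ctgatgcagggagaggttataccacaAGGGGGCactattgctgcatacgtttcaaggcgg
The match is a description only. In the middle 200 bases of the peaks it was present in 10 of 39 wt CTCF peaks at the loci (25.6%), in 21.9% of all wt CTCF peaks and in 21.8% of all RefSeq promoters of build mm10, so that it did not set these peaks apart. The strongest wt CTCF peak at Grb10 had no match.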

How the data were processed

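ChIP-seq libraries of clonal female mouse embryonic fibroblasts were analysed from 8 deposited peak lists, which join 24 of 52 labelled libraries. Libraries of input chromatin and of H3K27me3 were not used here. According to the study's methods, the authors aligned reads with Bowtie2 to an mm10 genome with strain variants masked and called narrow peaks with MACS2 at q < 0.05. Per the labels, the replicates of a group were merged first. The submitters' processing notes give no versions, and the use of inputs in calling is not given in the sources used here. The score that the authors deposited with each peak reads like 10 times -log10 of the q-value, which is inferred, and it was used for ranks within a list only. The lists differed in length, and some in the number of libraries merged, while their depth is unknown. What set the length of a list was not tested. Length moves counts and shares.

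Peaks were counted with an overlap of at least 1 bp. A promoter was 1 kb on both sides of the 5′ end of a gene in GENCODE M21, and a body was the rest of the gene. Positions count from 1. Sequences were read from RefSeq's GRCm38 assembly, the same build as mm10. The members and lists of genes were chosen with earlier results of these data known; the comparison of percentiles between genotypes, the stretches named within Usp29, Grb10 and Dlk1, and the SmcHD1 count without the peak shared with mut, were added after the peaks had been seen. Named were the 10 genes, 23 of 24 other cluster genes that matched the annotation, the strongest CTCF and Rad21 wt site of each locus, sites at member promoters, SmcHD1 peaks and sites that differed from wt for both antibodies. Overlap counting was tested on simulated data. Python 3 was used with pandas, pysam and matplotlib.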

Additional observations from a re-analysis of the deposited data

How the results depend on the processing

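No paired analysis was possible because each group has 1 list pooled over its replicates, and for the same reason no replicate could be left out. Of 69 alternative values for 20 results, 52 stayed within 1.5 times the count reported or inside the interval of the share, and 17 moved. With scores of at least 50 the SmcHD1 peaks of wt at the loci fell to 4, and shares moved for CTCF wt without mut (6.06%), Rad21 wt without somKO (4.35%), and Rad21 with CTCF in wt (50.0%) and mut (61.5%). The member promoters with CTCF in wt became 4 with 2 kb and 3 with any transcript start. When overlap had to cover 50% of both peaks, missing peaks became 30.8% for CTCF wt without somKO, 57.1% for Rad21 wt without mut, 44.4% for Rad21 wt without somKO, 63.0% for Rad21 mut without wt and 53.3% for Rad21 somKO without wt (20.2%, 48.1%, 41.4%, 46.9% and 55.9% over the whole lists), and Rad21 with CTCF became 17.5% in wt, 23.3% in mut and 24.0% in somKO. With lists cut to equal length, CTCF wt without mut became 6.06% and Rad21 somKO without wt 18.5%. The share of Rad21 peaks with CTCF stayed below that of the whole list under every alternative run, in all 3 genotypes. In wt it was 17.5% against 31.2% with the stricter overlap, and 50.0% against 70.5% with scores of at least 50. In mut and somKO the interval contained the value over the list under some settings. With the stricter overlap it was 23.3% (15.1 to 34.2) against 31.7% in mut, and 24.0% (15.8 to 34.8) against 29.5% in somKO. With scores of at least 50 it was 61.5% (48.0 to 73.5) against 71.6% in mut. With lists of equal length it was 55.6% (42.4 to 68.0) against 66.5% in somKO. For CTCF mut without wt, which stood just above its list, the settings differed. The value over the list lay inside the interval with the stricter overlap (38.3% against 28.7%) and with a flank of 100 kb (24.6% against 16.8%). It lay below the interval with scores of at least 50 (29.5%, 18.2 to 44.2, against 15.2%). With lists of equal length it did so too (29.8%, 18.7 to 44.0, against 17.4%).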

Other observations

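Other imprinted genes outside the 5 loci were looked at for SmcHD1 peaks of wt after the peaks at Peg3, Grb10 and Airn had been seen, so that the list was chosen with values known and no test was made. Of 19 such genes, 10 had an SmcHD1 peak within 1 kb of an annotated transcript start, against 3.35% of 55341 gene names. They were Plagl1, Mest, Peg10 and Sgce, which share one peak, Nnat, Zrsr1, Nap1l5, Inpp5f, Peg13 and Mcts2. The peaks stood at percentiles from 37.6 at Peg13 to 99.5 at Inpp5f, and Nap1l5 stood at 99.4. Those at Plagl1, Nnat and Nap1l5 also met a peak of the mut list, as the peak upstream of Meg3 did, where 2.33% of all wt peaks did. Gnas, Slc38a4, Snrpn, Rasgrf1, H19, Ndn, Magel2, Mkrn3 and Peg12 had none. What the peaks shared with the mut list stand for was not tested.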
